A study of Mus musculus with 76 samples.

Results

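A set of 200 genes was defined by its transient expression at the 2-cell stage of mouse development and was followed in embryos of Ezhip maternal knockout (matKO) mothers. The members were chosen from wild type (WT) libraries alone, in counts per 1000000 counts of a library (CPM). A gene had to average at least 20 CPM in WT 2-cell embryos and at least 10 times both its WT oocyte mean plus 1 and its WT blastocyst mean plus 1. Of 48321 genes in the tables, 229 met these levels. Leaving out the Zscan4, Usp17l, Tcstv, Obox, Prame and Hist families and Zfp352 left 218, of which the 200 with the highest WT 2-cell mean were kept. These levels in WT chose the members, so they are given as a description, with no test.

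EZHIP, the product of Ezhip, restrains PRC2, the enzyme complex of the Polycomb group that methylates histone H3 at lysine 27 (H3K27me3), and the series asked how loss of the maternal product affects imprints that depend on this mark. Each library held polyadenylated RNA of a single oocyte, embryo or piece of tissue, from matKO or WT, per the labels. There were 12 matKO (6 female, 6 male) and 11 WT (5 female, 6 male) 2-cell embryos, 4 matKO and 3 WT oocytes, and 14 matKO (7 female, 7 male) and 14 WT (6 female, 8 male) blastocysts. Extraembryonic ectoderm (ExE) at embryonic day 6.5 came from 8 matKO (5 female, 3 male) and 10 WT (6 female, 4 male) conceptuses. Strain, the form of the Ezhip allele, the genotype of the fathers and litters are not stated in the labels used here, and nothing says which libraries share a mother. A p-value here therefore reflects variation among individual libraries, and some of that variation may be technical.

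The mouse embryo starts to transcribe its own genome at the 2-cell stage, when RNA stored in the oocyte is degraded. A class of genes is switched on in this window and silenced again as development goes on. Many lie in tandem arrays of recently duplicated genes, and several are driven by, or lie next to, retroviral elements. The factors DUX, DPPA2 and DPPA4 are known regulators of part of this programme in embryos or in embryonic stem cells.

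Totals per library, in units of 1000000 counts, ran between 1.05 and 14.1 in 2-cell embryos, 5.27 and 26.5 in oocytes, 4.06 and 32 in blastocysts and 2.74 and 26.7 in ExE. Ezhip itself stood at 0 to 19.1 CPM (median 1.02) in matKO 2-cell embryos and at 31.3 to 347 CPM (median 135) in WT ones. In oocytes it had 0.113 to 0.59 CPM in matKO and 943 to 1460 CPM in WT. The 2-cell libraries carry identifier numbers in their labels, 37 to 48 in matKO and 25 to 36 in WT, so any effect of that order between the genotypes cannot be told apart from genotype. Summed levels of 15 granulosa and cumulus cell markers were 3.68 to 21.2 CPM in matKO and 0 to 1770 CPM in WT 2-cell embryos, with 8 WT embryos above 100 CPM. One matKO embryo, female 4, had 2670 CPM of 9 macrophage markers, against at most 97 CPM in the other matKO and 60 CPM in WT embryos.

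The pulse was also present in matKO. Summed over the 200 genes, 2-cell embryos had 23100 to 45700 CPM (median 35800) in matKO and 24900 to 36000 CPM (median 32800) in WT. Oocytes had 641 to 794 CPM (median 697) in matKO and 703 to 903 CPM (median 777) in WT. Blastocysts held 1110 to 3190 CPM (median 2260) in matKO and 868 to 1970 CPM (median 1200) in WT, and ExE 1450 to 4770 CPM (median 2550) in matKO and 1860 to 2810 CPM (median 2310) in WT. The 2-cell libraries lay far above those of every other stage in both genotypes, while the genotypes overlapped at each stage.

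**Figure D1:**
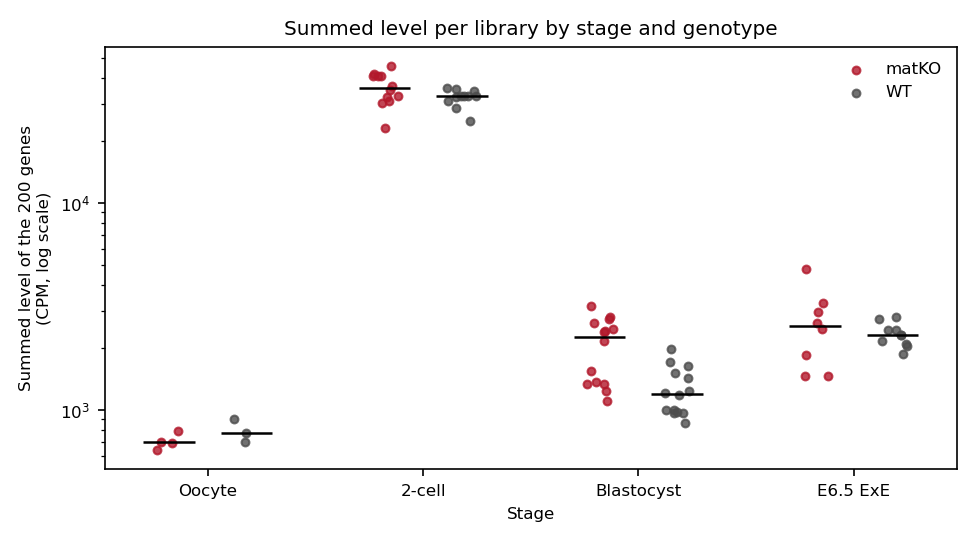
Summed level of the 200 genes (CPM, log scale) in each library at 4 stages, matKO left of WT, with a bar at the median. The 2-cell libraries sit between 23100 and 45700 CPM in both genotypes together, above all libraries of the other stages, which reach at most 4770 CPM.

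The matKO libraries had no part in choosing the members, so the stage difference was tested in them. With edgeR's quasi-likelihood test and Benjamini-Hochberg adjustment over all genes (threshold 0.05), 198 of 200 members were higher in matKO 2-cell embryos than in matKO oocytes, and none was lower. Among all 14864 genes tested, 28.3% were higher (53.4% in either direction). The median member difference was 6.21 on the log2 scale, against a median of -0.01 over all genes. Of these members, 94 passed the count filter only through the 2-cell embryos, where they are high, so their direction was fixed by the filter. Of the 106 that also passed it among oocytes of both genotypes, 104 were higher, with a median of 4.76. The 2 exceptions were Drc1, a ciliary dynein regulator (log2 difference 1.69, adjusted p = 0.073), and the phosphatase gene Dusp22 (1.65, adjusted p = 0.093). Over matKO blastocysts, 196 of 200 members were higher and none was lower, with 40.2% of 14748 genes higher (74.6% in either direction), and the median member difference was 4.73. Here 59 passed only through the 2-cell embryos, and of the 141 that also passed among blastocysts, 137 were higher, with a median of 3.74. The others were Nr1h3, Hcrt, Dio1 and Entpd3, which encode a nuclear receptor, a neuropeptide, a deiodinase and an ectonucleotidase, and whose differences were 0.17 to 1.26 (adjusted p = 0.076 to 0.88). A DESeq2 fit of the same libraries called 200 and 197 members higher.

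Held to the level rule itself, 146 of 200 members met all 3 criteria in matKO means, while by construction all met them in WT. A matKO 2-cell mean of 20 CPM or more was reached by 183 members, the distance to oocytes by 182 and the distance to blastocysts by 162. Blastocyst identifiers begin with D405T or D707T, and 8 of 14 matKO but 4 of 14 WT blastocysts have D707T. Summed member levels were higher under D707T than under D405T, with medians of 2540 and 1330 CPM in matKO and 1670 and 998 CPM in WT. The means of the rule make no allowance for this prefix, and its part in these counts was not tested. The rule applied to matKO libraries gave another set of 200, of which 130 were shared with the WT choice. Members near a threshold can pass or fail by small differences. The lowest-ranked members by WT 2-cell mean were Gm16239 (25.2 CPM), Defb42 (25.1) and Cngb1 (24.8), and the first below them were Gm26981 (24.3), Gm21542 (24.1) and Slc11a1 (24.1). For the distance to oocytes, Drc1, Eif5a2 and Parp10 lay just inside at 10.1, 10.2 and 10.3 times, and Gata4, Pip5k1a and Gm11543 just outside at 9.88, 9.75 and 9.59 times. For the distance to blastocysts, 2700038G22Rik, Cst7 and Dio1 lay just inside at 10, 10.1 and 10.3 times, and Fem1c, Ramp2 and Zfp623 just outside at 9.92, 9.88 and 9.76 times.

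The most abundant members by WT mean differ widely in kind. Gm5612, annotated as a processed pseudogene with 4 near-identical copies that include Map1lc3b (highest identity 96.8%), averaged 1430 ± 762 CPM in matKO (SD, n = 12) and 1440 ± 476 CPM in WT 2-cell embryos (n = 11). Larp1b, an RNA-binding protein of the La-related family, averaged 1130 ± 418 CPM in matKO and 1250 ± 304 CPM in WT, with 91.6 CPM in matKO and 119 CPM in WT oocytes. Gm11517 averaged 1810 CPM in matKO and 1200 CPM in WT, Gm16026 1810 and 1120 CPM, and B020004C17Rik 1310 and 1110 CPM, in the same order. B020004C17Rik was the sharpest of these, with at most 0.685 CPM in any oocyte and 0.292 CPM in any blastocyst of either genotype. Among genes of known function, Pank3, a kinase of coenzyme A synthesis, averaged 1010 CPM in matKO and 873 CPM in WT. Exoc3l2, related to exocyst subunits, averaged 1050 and 1120 CPM, Vimp, a selenoprotein of the endoplasmic reticulum (ER), 726 and 806 CPM, and Tfrc, the transferrin receptor, 678 and 721 CPM, in matKO and WT. The centrosomal gene Sfi1 averaged 951 CPM in matKO and 979 CPM in WT, the Fc receptor gene Fcgr3 762 and 740 CPM, and the zinc finger gene Zscan5b 713 and 679 CPM. None of these 12 differed between the genotypes by the adjusted test (adjusted p = 0.091 to 1), a result that leaves small differences undecided. Per kilobase of gene length, the order in WT changed, with Gm5612 at 3380 and Gm11517 at 3100 CPM per kb, ahead of Gm23935 (949), Gm11544 (882) and Gm29284 (839).

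The coefficient of variation of a member between embryos had a median of 50.9% in matKO and 44.7% in WT. In WT it ran between 11.1% for Gm29284 and 204% for Gm10800. The variation was larger in matKO for 115 of 200 members. Of the libraries under 2000000 counts, 4 were matKO and 2 WT, and member levels in matKO also differed with identifier number. The part of depth and of identifier number in this variation was not tested.

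The members shared features that the rule had not used. Compared with the other 6788 genes averaging at least 20 CPM in WT 2-cell embryos, they were shorter (median 2450 against 4160 bases) and had fewer exonic blocks (median 5 against 10), and 28 of them (14%, against 2.42%) had 1 block. Of 199 members found in GENCODE M21, 77.9% were protein coding, against 97.5% of the others, and 28 (14.1%, against 1.16%) were pseudogenes. Symbols of the form Gm with a number made up 45 members (22.5%, against 1.86%). By position, 74 of 200 members lay within 500 kb of another member, in 28 runs, a count that was not compared with other genes. The longest were 6 members at chr13:119827961-120241158 in mm10 (AF067063, D13Ertd608e, Gm21761, B020031M17Rik, Gm21762 and Gm21731) and 6 on chromosome 11 (Gm12627, Gm12626, Gm12625, Gm12619, Gm12612 and the TACI receptor gene Tnfrsf13b). A run of 5 on chromosome 11 held Tmem92, Gm11546, AA623943, Gm11544 and A430060F13Rik, and one on chromosome 17 held 3 class I histocompatibility genes, H2-Q6, H2-Q7 and H2-Q10, with Msh5 and Apom. Gm8300, Gm21936 and Gm5662 lay together on chromosome 12.

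A near-identical copy, here another GENCODE gene whose transcript matches at least 80% of the member's longest transcript at 95% identity or more, existed for 27 members (13.5%) and for 145 of the other genes (2.14%). No source used here says how reads matching several places were counted, so the levels of these 27 are uncertain, and a difference may belong to the copy. Of all 200 members, 11 overlapped exons of a gene on the same strand and 33 on the opposite strand, with some members in more than 1 of these groups. Reads may be shared there, since the strand setting is not stated either. A pair of examples shows how little separates some members. The coding sequences of AF067063 and Gm21731 on chromosome 13 differed at 1 of 489 aligned bases, and the annotated coding sequence of Gm21731 is 51 bases longer. Bases 103 to 282 follow, from GENCODE on GRCm38, with the differing base in capitals (coding regions chr13:119828170-119828658 on the minus strand and chr13:120240670-120241209 on the plus strand).
AF067063: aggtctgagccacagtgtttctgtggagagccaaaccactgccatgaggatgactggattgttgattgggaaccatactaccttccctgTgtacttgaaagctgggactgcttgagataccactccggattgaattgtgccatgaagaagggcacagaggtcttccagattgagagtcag
Gm21731: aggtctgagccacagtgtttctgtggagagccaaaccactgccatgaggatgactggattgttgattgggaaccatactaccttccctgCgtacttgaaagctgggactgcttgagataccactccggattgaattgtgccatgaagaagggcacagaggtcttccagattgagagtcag
Gm5662 and Gm21936 on chromosome 12 (coding regions chr12:88271557-88271988, minus strand, and chr12:87795512-87795943, plus strand) differed at 14 of 432 coding bases. Of these, 12 fall in bases 251 to 430, in capitals below.
Gm5662: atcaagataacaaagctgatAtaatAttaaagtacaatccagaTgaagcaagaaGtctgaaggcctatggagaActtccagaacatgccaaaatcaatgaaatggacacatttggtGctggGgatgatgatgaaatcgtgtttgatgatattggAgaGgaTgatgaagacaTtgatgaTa
Gm21936: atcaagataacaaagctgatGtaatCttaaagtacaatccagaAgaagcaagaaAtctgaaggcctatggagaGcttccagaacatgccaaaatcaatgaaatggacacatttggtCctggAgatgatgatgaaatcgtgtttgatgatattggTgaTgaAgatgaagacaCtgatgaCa
Within the printed stretches, a read covering none of the capitals matches both genes of a pair.

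Promoter windows of RefSeq on GRCm38.p6, 250 bases before to 50 after a start, were matched to 123 members by symbol. For 94 the start lay within 100 bases of the gene's own start in the tables, read by strand. Both strands were searched for 3 motifs. TATAAA, the TATA box core, was in 6 of the 94 windows (6.38%), against 6% of 5246 windows of the other expressed genes and 14.2% of all 27025 windows. GGATTA, a homeobox motif bound by OTX and OBOX factors, was in 11 (11.7%, against 5.49% and 7.16%). TCAAGGNCA, bound by NR5A2, was in 1 (1.06%, against 0.934% and 1.61%). The number of CG dinucleotides in a window had a median of 12.5 in members (0 to 49), 23 in the other expressed genes and 7 in all windows. For members the window nearest the gene's start was used, and for the other genes the first window listed for the symbol, with no limit on distance. The shares and CG medians therefore compare windows chosen in different ways. These are matches of letters only. The spread of CG content is shown by Rfpl4b, on the list of known 2-cell-stage genes, with 2 CG (chr10:38821730-38822029, minus strand), and by Klhl11 (chr11:100472733-100473032, minus strand) and Btbd18 (chr2:84658829-84659128, plus strand), each with 23, in capitals.
Rfpl4b: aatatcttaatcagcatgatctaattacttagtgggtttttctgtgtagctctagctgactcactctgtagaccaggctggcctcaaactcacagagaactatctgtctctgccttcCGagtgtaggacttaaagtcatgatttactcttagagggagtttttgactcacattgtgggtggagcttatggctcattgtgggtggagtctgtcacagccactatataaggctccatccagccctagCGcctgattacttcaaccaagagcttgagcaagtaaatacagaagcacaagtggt
Klhl11: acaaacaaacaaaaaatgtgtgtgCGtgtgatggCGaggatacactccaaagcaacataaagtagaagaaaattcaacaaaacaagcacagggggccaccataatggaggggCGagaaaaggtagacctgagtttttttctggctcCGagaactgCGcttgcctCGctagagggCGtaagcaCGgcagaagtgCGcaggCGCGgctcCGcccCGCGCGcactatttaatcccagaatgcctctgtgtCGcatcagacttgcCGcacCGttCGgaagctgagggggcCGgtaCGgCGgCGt
Btbd18: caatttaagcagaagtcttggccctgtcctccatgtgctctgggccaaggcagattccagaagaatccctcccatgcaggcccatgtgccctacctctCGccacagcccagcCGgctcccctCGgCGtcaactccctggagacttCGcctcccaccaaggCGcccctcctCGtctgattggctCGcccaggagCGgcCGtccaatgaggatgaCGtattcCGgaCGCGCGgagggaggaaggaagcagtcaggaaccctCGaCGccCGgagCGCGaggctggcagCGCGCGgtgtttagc

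In 2-cell embryos, 6 of 200 members were higher in matKO and none was lower, and all 6 have near-identical copies. Of the 14506 genes tested, 0.31% were called higher and 0.421% lower (0.731% in all). At an unadjusted p under 0.05, 39 members were higher (19.5%, against 7.34% of all genes) and 12 lower (6%, against 6.82%). The WT libraries entered the choice of members as well as this comparison. The member median was 0.04 on the log2 scale, with 106 members above 0 and 94 below, against a median of 0.02 over all genes.

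**Figure D2:**
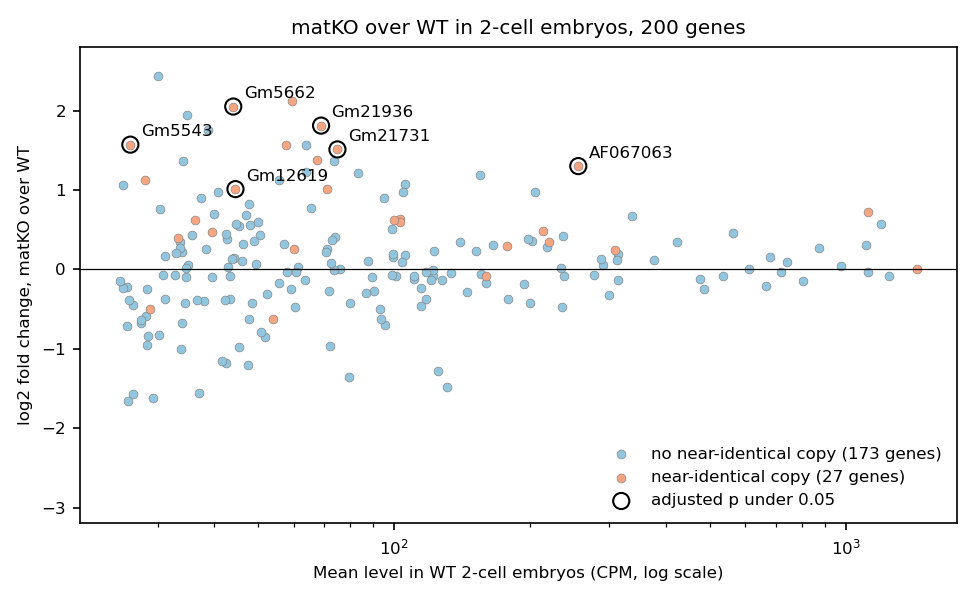
Log2 fold change of each member, matKO over WT 2-cell embryos, against its WT mean (CPM, log scale), coloured by whether a near-identical copy exists, with rings around the members that passed the test. The 6 ringed members lie between 1.01 and 2.05 and all belong to the 27 with a copy.

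Gm5543, a pseudogene on chromosome 3 beside Tdpoz1, had the smallest p. In order of identifier number it had 58, 67.9, 35.9, 86.4, 137, 57.6, 70.7, 75.1, 55.2, 26.4, 61.3 and 131 CPM in matKO embryos, against 11.8, 11.2, 8.9, 35.2, 31.5, 42.9, 40.9, 12.4, 23.9, 39.4 and 28.6 CPM in WT embryos. Of the 12 matKO embryos, 10 lay above every WT embryo and the others within the WT range (log2 fold change 1.57, SE 0.29, adjusted p = 0.0087). AF067063 had 337 to 931 CPM (median 560) in matKO and 82.8 to 553 CPM (median 194) in WT, and 6 matKO embryos lay above every WT embryo (1.30, SE 0.27, adjusted p = 0.020). Its copy Gm21731 had 96.1 to 371 CPM (median 172) in matKO and 23.5 to 164 CPM (median 55.8) in WT (1.51, SE 0.33, adjusted p = 0.024). All 12 matKO embryos lay above the WT mean for these 3 genes and for Gm12619, a chromosome 11 pseudogene, which had 54.1 to 113 CPM in matKO and 15.5 to 74.8 CPM in WT (1.01, SE 0.24, adjusted p = 0.040). Levels of AF067063 and Gm21731 differed by identifier number within matKO. Embryos 37 to 41 had 357 to 529 CPM of AF067063 and 96.1 to 145 CPM of Gm21731, within the WT ranges. Embryos 42 to 48 had 337 to 931 and 100 to 371 CPM. For both genes, the matKO embryos above every WT embryo were all numbered 42 to 48.

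Gm5662 and Gm21936 split more sharply by identifier number. Gm5662 had 29.1, 24.6, 51.4, 55.1, 32.3, 249, 148, 328, 109, 254, 363 and 479 CPM in matKO embryos by identifier number, against 14.1 to 76.9 CPM (median 41.9) in WT (2.05, SE 0.47, adjusted p = 0.032). Gm21936 had 50.6, 49.1, 51.4, 106, 43.1, 376, 250, 401, 183, 518, 394 and 500 CPM in matKO, against 21.2 to 142 CPM (median 54.5) in WT (1.81, SE 0.43, adjusted p = 0.040). For both, the 7 matKO embryos numbered 42 to 48 lay above every WT embryo and the 5 numbered 37 to 41 lay within the WT range.

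Other members of the runs did not pass the adjusted test. On chromosome 13 the log2 fold changes of D13Ertd608e, Gm21761, B020031M17Rik and Gm21762 were 1.01, 2.12, 1.57 and 1.13 (adjusted p = 0.095 to 0.21). In the run of Gm12619 the others had 0.11 to 0.62 (adjusted p = 0.34 to 0.91), with Tnfrsf13b at 45.5 CPM in matKO and 46 CPM in WT on average. Beside Gm5543, Tdpoz1 and Gm9125 had 0.59 and 0.40 (adjusted p = 0.24 and 0.59), and beside Gm5662 and Gm21936, Gm8300 had 1.36 (adjusted p = 0.093). In the Tmem92 run on chromosome 11, which holds no called member, the 5 values were 0.67 to 1.56 (adjusted p = 0.052 to 0.16). The histocompatibility genes of chromosome 17 had values of -0.63 to -0.05 (adjusted p = 0.42 to 0.97). By class, the 27 members with a copy had a median of 0.62 with 6 called higher, and the 173 without one had a median of -0.03 with none called in either direction. Among the other expressed genes, the 145 with a copy had a median of 0 with 1 called higher. The split by copies was made after the values were seen and was not tested. Granulosa markers also differed between the genotypes. The 3 WT embryos with few of them, numbered 25, 26 and 27 (10.6, 0 and 1.2 CPM of the markers), had 11.8, 11.2 and 8.9 CPM of Gm5543, which are the 3 lowest WT values. The next lowest, 12.4 CPM, was in WT embryo 33 with 494 CPM of the markers, and all matKO embryos had at most 21.2 CPM of the markers and at least 26.4 CPM of Gm5543. For none of the other called members were WT embryos 25, 26 and 27 the 3 lowest. They had 194, 82.8 and 251 CPM of AF067063 and 32.1, 67.6 and 53.1 CPM of Gm12619. The part of the granulosa markers in the results was not tested.

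No member was called lower. The smallest p-values on that side belonged to 4930515G01Rik (10.5 to 98.7 CPM in matKO and 64.2 to 390 CPM in WT, -1.48, SE 0.40, adjusted p = 0.072) and Dusp22 (0 to 15.8 CPM in matKO and 10.9 to 38.8 CPM in WT, -1.57, SE 0.44, adjusted p = 0.085). For both, all 12 matKO embryos lay below the WT mean. Iqub, the small heat shock protein gene Hspb1, Drc1 and the photoreceptor phosphodiesterase gene Pde6a had values of -0.96, -1.28, -1.21 and -1.16 (adjusted p = 0.14 to 0.20). DESeq2 called 5 members lower and 24 higher. Its own share of all genes called is not given here, and the edgeR shares above do not apply to it.

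The count of 6 changed with single libraries. It was 0 without the 6 libraries under 2000000 counts, of which 4 were matKO and 2 WT. All 4 matKO ones are among the 7 embryos numbered 42 to 48, so this step changed depth and the mix of identifier numbers together. Leaving out matKO female 1, female 4 or male 4 gave 16, 12 and 11, and leaving out WT female 2 gave 15. Leaving out WT female 1, female 5, male 2 or male 4, or matKO female 6, male 1, male 3, male 5 or male 6, gave 3 each. The count was 2 without WT male 3 or male 5, and 4 without WT male 6 or matKO male 2. Members chosen from the mean of both genotypes gave 17 called higher and none lower.

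Members can also be chosen in WT females and compared in males, which had no part in that choice. Of the 6 matKO males, 5 are numbered 42 to 47 and 1, male 4, is number 38, so the male comparison rests mostly on the later numbers. The choice from WT females shared 175 members with the main one. Of its members, 197 could be tested in males, and 25 were higher and 2 lower in matKO. In that comparison 1.52% of 12199 genes were higher and 0.582% lower (2.1% in all). Gm21731 (2.35, SE 0.31, adjusted p = 0.0014), Gm4850 (2.15, SE 0.32, adjusted p = 0.0045), AF067063 (1.92, SE 0.29, adjusted p = 0.0047), Gm21936 (2.65, SE 0.44, adjusted p = 0.0077) and Gm28645 (2.20, SE 0.38, adjusted p = 0.0089) were higher. Rfpl4b was also higher in males (2.90, SE 0.51, adjusted p = 0.0097), and so was Klhl11, a substrate adaptor of ubiquitin ligases (1.46, SE 0.29, adjusted p = 0.020). Gm5157, a member only of the choice from females, was higher by 2.61 (adjusted p = 0.0056). The 2 lower members were Chrna10, an acetylcholine receptor subunit (-2.68, adjusted p = 0.031), and Sat2, an acetyltransferase gene (-2.17, adjusted p = 0.045). The male count was 0 without libraries under 2000000 counts and 62 (38 higher, 24 lower) without matKO male 4. It was 14 without WT male 2, male 3 or male 4 or matKO male 3, 15 without matKO male 1 or male 6, and 16 without matKO male 5.

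No member differed between the sexes in its genotype effect by edgeR's adjusted test, nor did any gene of 14506, and DESeq2 called no member either. There were 26 members and 930 genes with an unadjusted p under 0.05. Among these, the matKO over WT value was higher in females than in males for 4.5% of members and lower for 8.5%. Over all genes the shares were 3.27% and 3.14%. Between female and male 2-cell embryos, 2 members were higher in females, with 0.324% of all genes higher and 0.0483% lower (0.372% in all). These were the chromosome X genes Mcf2 (log2 fold change 1.73, SE 0.32, adjusted p = 0.0043), and 1700013H16Rik (4.18, SE 0.94, adjusted p = 0.032). Of the 200 members, 11 (5.5%) lie on chromosome X, against 2.99% of the other expressed genes.

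Within the matKO embryos the members split along the identifier number. In the summed level, embryos 37 to 41 had 41700, 40800, 45700, 41100 and 41200 CPM, each above the highest WT embryo (36000 CPM). Embryos 42 to 48 had 32300, 36700, 32800, 23100, 31000, 35000 and 30300 CPM. The first 5 include 4 females and 1 male, and the other 7 include 2 females and 5 males. Depth differed too, with totals of 4.19 to 11 in the first 5 and 1.48 to 4.65 in the other 7, in units of 1000000 counts. The summed level of 25 stored maternal transcripts was 6770 to 12300 CPM in the first 5, 10300 to 19900 CPM in the other 7, and 6150 to 12400 CPM in WT. The sum includes Omt2a and Omt2b, which averaged 206 and 446 CPM in WT oocytes and 1310 and 1610 CPM in WT 2-cell embryos. It also includes Dppa3, which averaged 1850 CPM in WT oocytes and 2010 CPM in WT 2-cell embryos. The sum is therefore not a measure of RNA left from the oocyte alone. The part of depth, of stage within the 2-cell window and of sample handling in these values was not tested.

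**Figure D3:**
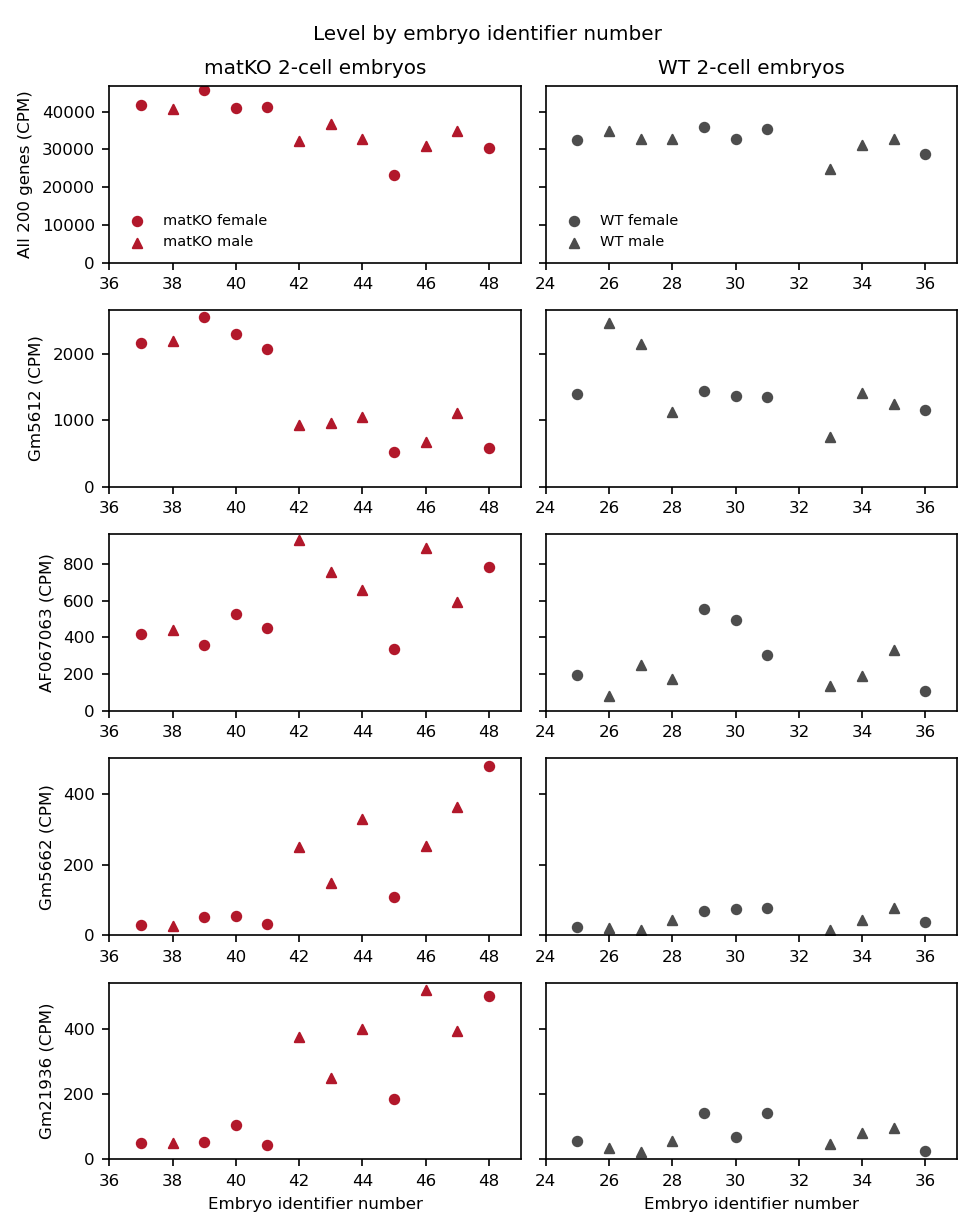
Level (CPM) by identifier number in matKO (left) and WT (right) 2-cell embryos for the sum of the 200 genes and 4 members, circles for females and triangles for males. In matKO, Gm5612 is at 2070 to 2560 CPM up to number 41 and at 527 to 1110 CPM after it, while Gm5662 and Gm21936 are low up to number 41 and high after it.

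A fit of the identifier number with sex as a term, added after these values were seen, called 18 members higher and 67 lower with rising number among the 12 matKO embryos. Of 11747 genes tested, 14.8% rose and 16.2% fell with the number (31% in all), beside 9% and 33.5% of the members. Among the 11 WT embryos no member was called by edgeR, with 0.0156% of genes called. There were 41 members with an unadjusted p under 0.05 in WT, with 7 rising (3.5%, against 5.42% of all genes) and 34 falling (17%, against 9.11%), and DESeq2 called 11. Whether the slopes of the genotypes differ was not tested.

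The falling members include many of the most abundant. Gm11517 had 3590, 3040, 4320, 2390, 2770, 899, 1040, 1010, 396, 751, 934 and 588 CPM in matKO by number, and 407 to 2040 CPM in WT, with a slope of -0.27 (SE 0.05, adjusted p = 0.00042) in log2 per number. Exoc3l2 had 1370 to 1640 CPM up to number 41 and 477 to 1010 CPM after it, against 852 to 1490 CPM in WT (-0.16, SE 0.03, adjusted p = 0.0018). The slopes were also negative for Pfkfb3, which sets the level of a glycolytic activator (-0.28, adjusted p = 0.00011), the glutamine transporter gene Slc1a5 (-0.24, adjusted p = 0.00062), Jmy (-0.19, adjusted p = 0.00070) and Tfrc (-0.14, adjusted p = 0.0026). Among the rising ones, Gm8300 had 31.5 to 66.1 CPM up to number 41 and 150 to 493 CPM after it, against 27.6 to 132 CPM in WT (0.30, SE 0.04, adjusted p = 4.7e-05). Tmem92 had 64.7 to 95.9 CPM and 157 to 491 CPM, against 33.9 to 171 CPM in WT (0.24, SE 0.03, adjusted p = 8e-05). Of the 27 members with a copy, 8 rose and 4 fell, and of the 173 without one, 10 rose and 63 fell. Gm5543 had no such slope that passed the test (0.02, SE 0.05, adjusted p = 0.81), nor had Gm12619 (-0.03, SE 0.04, adjusted p = 0.61), and both were above the WT mean in all 12 matKO embryos.

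Known genes of the 2-cell programme outside the families left out were listed separately, with earlier results of these data known. Of 34, 33 were in the tables, 28 could be tested and 9 are members. In matKO 2-cell embryos 4 were higher and none lower, with a median of 1.28 against 0.02 over all genes. Over all genes 0.31% were called higher. At an unadjusted p under 0.05, 19 of the 28 were higher and none lower, against 7.34% and 6.82% of all genes. The 4 were the members Gm5662 and AF067063 and the non-members Gm2016 (1.95, adjusted p = 0.049) and Gm4027 (2.45, adjusted p = 0.032). Gm2016 is 99.3% identical to Gm5662, so their reads may not be separable. The listed genes BB287469, Gm2016 and Gm2022, with values of 2.53, 1.95 and 1.74, are all near-identical copies of the member Gm21936, so the same holds for them. In matKO, Gm5662, Gm8300 and Tmem92 were higher in the later-numbered embryos than in the earlier ones. The 19 therefore cannot be read as 19 independent changes, and the count and median were not adjusted for this. Of the other listed members, Rfpl4b had 22.4 to 186 CPM in matKO and 3.61 to 116 CPM in WT (1.75, SE 0.48, adjusted p = 0.078). Gm8300 and Tmem92 had fold changes of 1.36 and 1.21 (adjusted p = 0.093 and 0.064), Tdpoz1, with TRAF and POZ domains, 0.59 (adjusted p = 0.24), and Spz1, a basic helix-loop-helix factor known from testis, 0.57 (adjusted p = 0.37). Ubtfl1, an HMG-box gene, and the transcription factor gene Snai1 had 0.36 and 0.13 (adjusted p = 0.54 and 0.79).

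Of 25 regulators of the 2-cell programme, 23 could be tested in 2-cell embryos and none was called by edgeR, with a median of -0.13. Of these, 2 were higher at an unadjusted p under 0.05. Dppa2 averaged 188 ± 116 CPM in matKO and 191 ± 60.1 CPM in WT, and Dppa4 averaged 359 ± 98.8 CPM in matKO and 408 ± 90.7 CPM in WT (SD, n = 12 and 11). Duxf3, of the Dux family, averaged 0.44 CPM in matKO and 0.563 CPM in WT and was below the count filter. In blastocysts, 2 of 23 regulators tested, Dppa4 and Dppa2, were called higher in matKO and none lower, with 2.75% of all genes higher. Of 25 stored maternal transcripts 24 could be tested in 2-cell embryos. In matKO 2 were higher, beside 0.31% of all genes, and none was lower, with a median of 0.57. These were Bpgm, of the red cell bisphosphoglycerate pathway, and the oocyte growth factor gene Gdf9 (499 ± 183 CPM in matKO and 309 ± 75.3 CPM in WT, 0.76, SE 0.18, adjusted p = 0.037). At an unadjusted p under 0.05, 14 of the 24 were higher and 1 lower, against 7.34% and 6.82% of all genes. Their summed level had a median of 8430 CPM in matKO embryos 37 to 41, 15600 CPM in matKO embryos 42 to 48 and 7400 CPM in WT. This sum includes Omt2a, Omt2b and Dppa3, whose WT means were higher in 2-cell embryos than in oocytes.

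In oocytes many of the members were near or at 0. All libraries of matKO had 0 CPM for 32 members and all of WT for 34, and 106 could be tested. None was called by edgeR in matKO over WT, with 0.0202% of 14838 genes called and 8 members (4 higher, 4 lower) and 929 genes at an unadjusted p under 0.05. DESeq2 called none of the members. Identifier numbers were 21 to 24 in matKO and 17 to 19 in WT, so order and genotype cannot be told apart there.

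In blastocysts 9 members were higher in matKO and none lower, of 141 tested, with 2.75% of 13445 genes higher and 3.55% lower (6.3% in all). At an unadjusted p under 0.05, 21 were higher (14.9%, against 8.51% of all genes) and 6 lower (4.26%, against 11.2%). DESeq2 called 11 higher and 2 lower, and its share of all genes is not given here. WT blastocyst means were part of the rule, which keeps genes that are low there. With members chosen from the mean of both genotypes, 8 were higher and none lower. Choosing members in WT females and testing male blastocysts, added after the data were seen, gave 3 higher (Fcgr3, Rgs11 and Trim43b) and none lower of 114 tested, with 0.418% of genes higher.

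Fcgr3, a receptor for the constant part of immunoglobulin G, had 30.2 to 162 CPM (median 64.5) in matKO and 7.67 to 49.6 CPM (median 22.5) in WT blastocysts. In 10 of 14 matKO blastocysts it lay above every WT one (1.57, SE 0.27, adjusted p = 0.00044). Fcgr3 is known from macrophages, and 9 macrophage markers summed to 0 to 19.5 CPM in matKO and 0 to 10.8 CPM in WT blastocysts. Trim43b, of the tripartite motif family with near-identical copies, had 26.8 to 195 CPM (median 76.5) in matKO and 20.6 to 44.9 CPM (median 23.8) in WT (1.44, SE 0.24, adjusted p = 0.00044). Btbd18, a nuclear BTB-domain protein, had 4.52 to 35.2 CPM (median 16.7) in matKO and 0.707 to 13 CPM (median 4.58) in WT (2.02, SE 0.43, adjusted p = 0.0037). Ficd, an ER enzyme that modifies the chaperone BiP, had 6.2 to 35.9 CPM in matKO and 1.16 to 15.5 CPM in WT (1.08, SE 0.23, adjusted p = 0.0034). Dnajb9, an ER co-chaperone, averaged 29.4 CPM in matKO and 17.9 CPM in WT (0.71, SE 0.21, adjusted p = 0.037). Platr17, the phosphate transporter gene Slc34a2, the actin regulator gene Jmy and Gm33466 were higher by 0.90, 0.67, 0.59 and 2.55 (adjusted p = 0.0074 to 0.038). In both genotypes the means of all 9 stayed below their 2-cell means. At the 2-cell stage Fcgr3 averaged 762 CPM in matKO and 740 CPM in WT, and Btbd18 487 and 536 CPM.

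**Figure D4:**
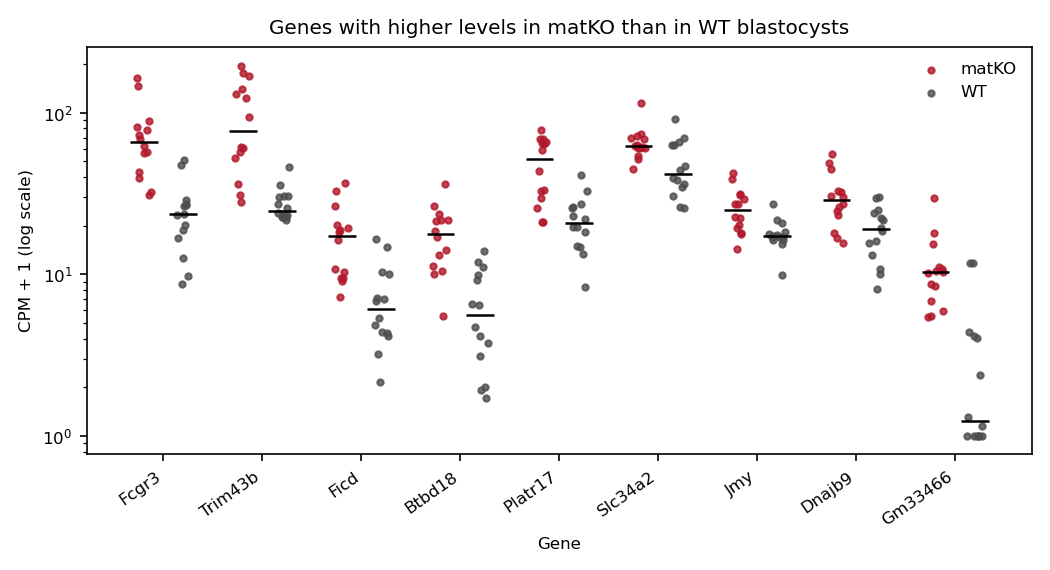
Level (CPM + 1, log scale) of the 9 members that were higher in matKO blastocysts, 14 libraries per genotype, matKO left of WT, with a bar at the median. The matKO medians lie above the WT medians for each gene, and the genotypes overlap for each.

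Blastocyst identifiers begin with D405T or D707T, and the fit allowed for this prefix. Summed over the members, matKO had 1110 to 1540 CPM (n = 6) and WT 868 to 1500 CPM (n = 10) under D405T, and matKO 2140 to 3190 CPM (n = 8) and WT 1430 to 1970 CPM (n = 4) under D707T. The genotypes overlapped under D405T and did not under D707T, where the numbers are ordered by genotype. Within D405T 5 members were called (3 higher, 2 lower) and within D707T 4 (all higher). The shares of all genes called in these separate fits are not given here, so these counts have no background beside them. Fcgr3 held within both (1.25, adjusted p = 0.029, and 2.16, adjusted p = 0.0079), as did Trim43b (0.78, adjusted p = 0.037, and 2.55, adjusted p = 0.0015). Btbd18 was called within D707T (3.54, adjusted p = 0.0085) and not within D405T (1.14, adjusted p = 0.092), Ficd within D405T (1.18, adjusted p = 0.046) and not within D707T (0.87, adjusted p = 0.29), and Platr17 within neither. Trophectoderm markers summed to 650 to 4820 CPM in matKO and 1880 to 7300 CPM in WT blastocysts, and inner cell mass markers to 357 to 925 CPM in matKO and 215 to 581 CPM in WT. Fewer cells of a type and less RNA per cell cannot be told apart in whole embryos, and the part of cell makeup in these results was not tested. Gm11517 and Gm5612 had the highest matKO blastocyst means of all members, 264 and 219 CPM, against 65.2 and 75.2 CPM in WT (1.21 and 1.02, adjusted p = 0.076 and 0.055), followed by Larp1b with 98.4 CPM in matKO and 99.3 CPM in WT.

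ExE had no part in the choice of members. Means of 20 CPM or more were found for 13 members in matKO and 22 in WT. Apom, an apolipoprotein, had 85.2 to 840 CPM (median 305) in matKO and 126 to 754 CPM (median 310) in WT. Phlda2, an imprinted gene known to restrain placental growth, had 151 to 3490 CPM (median 805) in matKO and 45.1 to 403 CPM (median 250) in WT, above its own 2-cell level (75.1 CPM in matKO and 90.2 CPM in WT on average). Mttp, which loads lipid onto apolipoprotein B, averaged 117 CPM in matKO and 232 CPM in WT, Vimp 99.5 and 156 CPM, and Sfi1 94.5 and 123 CPM. For these genes the rule's oocyte and blastocyst limits still hold while ExE was high, so transient expression refers to the stages of the rule.

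Of 112 members tested in ExE, 11 were higher and 12 lower in matKO, against 14.1% of 14156 genes higher and 10.7% lower (24.9% in all). The members called made up 9.82% and 10.7% of those tested, near these shares. All matKO ExE libraries have the prefix D707T and all WT ones D1042C, so an effect of the prefix cannot be told apart from one of genotype. Gm23935, a 57-base gene annotated as a miRNA with identical copies, had 1.31 to 45.7 CPM in matKO and 0 to 0.737 CPM in WT (5.56, SE 0.59, adjusted p = 1.2e-06). Pcsk1n, an inhibitor of a prohormone convertase, had 1.21 to 15 CPM in matKO and 0.336 to 3.45 CPM in WT (3.04, SE 0.47, adjusted p = 8.6e-05). Hspb1 had 23.4 to 239 CPM in matKO and 2.06 to 28.1 CPM in WT (3.32, SE 0.52, adjusted p = 0.00021), and Phlda2 was higher by 2.16 (SE 0.56, adjusted p = 0.0090). Ppp2cb, a catalytic subunit of phosphatase PP2A, had 5.72 to 16.7 CPM in matKO and 24.4 to 52.1 CPM in WT (-1.26, SE 0.24, adjusted p = 0.00069), with no overlap. Utp14b, of ribosomal RNA processing, had 8.21 to 62.5 CPM in matKO and 48.9 to 181 CPM in WT (-1.51, SE 0.30, adjusted p = 0.0012). Stroma markers summed to 28 to 352 CPM in matKO and 23 to 145 CPM in WT ExE and blood markers to 1.7 to 354 CPM in matKO and 0.103 to 38.6 CPM in WT, and their part in these results was not tested.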

How the data were processed

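The deposited tables hold raw counts per gene as made by the authors, 1 table per stage, for 76 libraries. The submitters' processing notes name Trim Galore, STAR, SAMtools, featureCounts and the build mm10, with no versions. The annotation, the strand setting and the treatment of reads with several matches are named in none of the sources used here. The tables also hold 8 columns of counts that match no sample in the labels and were not used. CPM is a count over the library's total, times 1000000. The members and gene lists were chosen with earlier results of these data known.

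Genotype was fitted within each stage, and the matKO 2-cell embryos were fitted jointly with the matKO oocytes (stage as the term) and with the matKO blastocysts (stage and sex, no prefix term), with edgeR 4.0.16 (R 4.3.3), with filterByExpr at a minimum count of 10, TMM scaling, estimateDisp and the robust quasi-likelihood test. Sex was a term in stages with both sexes, and the prefix in blastocysts. Adjustment was by Benjamini-Hochberg, across every gene tested. SE is implied by F. The fit was tested on simulated data. Pairs of replicates were checked for duplicates (chi-square per degree of freedom at least 10.1). Alternatives were edgeR without estimateDisp, DESeq2 1.42.0, RLE scaling, no filter, no sex term, a replicate block, each library left out, shallow libraries left out and other choices of members. Copies were found with BLAST+ 2.17.0 in GENCODE M21 transcripts.

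Genes are named by a rule: the 12 with the highest WT 2-cell mean, called members at the 2-cell stage with those of smallest p where fewer than 6 were called in a direction, up to 5 called members of each other comparison, the 5 highest in WT ExE and in matKO blastocysts, members on the known list, and 3 genes on each side of each threshold. Others named (members of runs, of both slopes with identifier number and of the male comparison beyond the first 5) were chosen after their values were seen.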

Additional observations from a re-analysis of the deposited data

Results flagged for a closer look

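Of 71 checks of a gene or the summed level in a group of 4 to 10 libraries, 11 had 1 library set apart from the others by a gap that is large for the group's range. Chance sets apart about 1 in 20. In matKO 2-cell females, female 6 (identifier number 48) had the highest Gm21731 (279 CPM, next 145), Gm21936 (500 CPM, next 183) and Gm5662 (479 CPM, next 109). In matKO males, male 5 had the lowest Gm5543 (26.4 CPM, next 57.6). The summed level was lowest in WT male 4 (24900 CPM, next 31100). In blastocysts, matKO male 7 had 162 CPM of Fcgr3 (next 77.3) and WT female 3 had 44.9 CPM of Trim43b (next 29.4). In ExE, matKO female 1 had the highest Gm23935 (45.7 CPM, next 8.95) and Utp14b (62.5 CPM, next 16.3), and Hspb1 was highest in WT female 2 (28.1 CPM, next 13.6) and WT male 4 (20.2 CPM, next 2.33).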

How the results depend on the processing

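Members called in 2-cell embryos numbered 6, with 19 by edgeR without estimateDisp, 29 by DESeq2, 3 with no filter, 11 with no sex term, 22 with the identifier number as a covariate, 0 without libraries under 2000000 counts, and 2 to 16 with 1 library left out. Other choices of members gave 1 at 5-fold, 3 at 50 CPM, 19 when chosen from matKO and 17 from both genotypes. The choice from matKO used the matKO values that were then compared, and leans towards genes higher in matKO. The choice from WT leans the other way. In males the count was 27, with 44 and 47 by the other fits, 0 without shallow libraries and 14 to 62 with 1 library left out. Blastocysts had 9, with 24 without estimateDisp, 5 and 4 within the prefixes and 3 in males only. Between the sexes 5 were called without estimateDisp, and for the identifier number in WT 23 without estimateDisp and 11 by DESeq2. For the alternative fits, other than male blastocysts, the share of all genes called is not given here. Their counts therefore have no background beside them. Members meeting the level rule in matKO were 73 of 97 at 20-fold and 92 of 124 at 50 CPM. The cause of these differences was not tested, other than that fewer libraries or genes were used. Same-numbered replicates did not deviate together in every pair (correlations of -0.15 to 0.35 in 2-cell females and -0.21 to 0.16 in males). In blastocysts the correlations were -0.12 to 0.52 in females, with 3 of 6 pairs over 0.1. They were 0.06 to 0.53 in blastocyst males, with 6 of 7 pairs over 0.1. In oocytes and ExE they reached at most 0.19 and 0.15. These values cannot decide whether same-numbered replicates share more than a number. With the replicate block, 0 members were called in 2-cell embryos, 6 in blastocysts, 20 in ExE, 20 in males and 0 in oocytes. No named gene changed direction. Families left out after the 200 were kept, members from both genotypes at other stages, male blastocysts, the stage counts by filter, the other fits of the sex and number effects and the fit of the number itself were added after the data were seen. Depth limits low members most, since 6 of 23 2-cell libraries held under 2000000 counts.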
